A study of Microhyla fissipes with 12 samples.

Results

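Dorsal muscle RNA of the frog Microhyla fissipes was compared between stage 45 (S45) and stage 43 (S43), the last step of metamorphosis that the series covers. The comparison used 6 of the 12 libraries, 3 per stage, chosen by their stage label alone. It covered 89354 of the 468578 unigenes in the deposited table, those that reached 1 FPKM in 3 or more of the 6. FPKM counts mapped fragments per length of the unigene and per size of the library, and a unigene is a transcript of a gene catalogue assembled from reads. No treatment or genotype separates the stages. The animals came from 1 collection site, the tadpoles were fed spirulina powder, and the sources used here give neither their age and sex nor the number pooled per library. The other libraries, 3 each of stages 36 (S36) and 40 (S40), entered the fit to estimate the spread between libraries. The unigene IDs come without gene names in the table, so the tissue label could not be checked against muscle markers and no gene or pathway is named.

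Anuran metamorphosis is driven by thyroid hormone and reaches a climax in which the tail is resorbed and the body is rebuilt for life on land. In Xenopus laevis the muscle of the trunk is remodelled during this time, with larval fibres replaced by fibres of adult type. Such fibres are packed with contractile proteins, so the messenger RNA of striated muscle is usually dominated by a small number of very abundant transcripts. In RNA from whole tissue, fewer cells of a type and less RNA per cell cannot be told apart.

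The S43 libraries were not alike. The Pearson correlation of log2(FPKM + 1) over the tested unigenes ran from 0.613 to 0.694 between S43 libraries. Between single S43 and S45 libraries it ran from 0.549 to 0.735. Its mean was 0.648 within S43. The mean between S43 and S45 was 0.651, but with S45 replicates 2 and 3 averaged first, so these means are not on a like basis. S43 replicate 2 correlated best with S36 replicate 1 (0.760) and S43 replicate 1 with S36 replicate 3 (0.741). S43 replicate 3 correlated best with S45 replicate 1 (0.735). Among single libraries, S45 replicate 1 was closer to S43 replicate 3 than to S45 replicates 2 and 3 (0.719 for both). With the mean of S45 replicates 2 and 3, however, S45 replicate 1 correlated at 0.744. S45 replicates 2 and 3 correlated best with each other (0.871). Next for both came S40 replicate 2 (0.799 and 0.794), ahead of S45 replicate 1. S43 replicate 1 was nearly as close to S40 replicate 3 (0.738) as to S36 replicate 3. The likenesses to S36 and S40 libraries and between S43 replicate 3 and S45 replicate 1 cross the stage labels. Whether any labels were exchanged was not tested, and every difference given here takes them as they are. S45 replicates 2 and 3 were nearly identical. Among unigenes averaging 1000 FPKM and above, the scaled median absolute deviation of their log2 ratio was 0.0287. This robust measure of spread was 0.237 to 0.619 for the other pairs of the 6 libraries. The mean of S45 replicates 2 and 3 was counted as 1 sample, so S45 has n = 2 and S43 has n = 3. Depth relative to S45 replicate 2, estimated from the step size of low FPKM values, was 0.69, 1.13 and 1.26 in S43 replicates 1, 2 and 3. For S45 it was 0.52 in replicate 1 and 1.02 in replicate 3. These depths were cross-checked over 10 pairs: 8 closed to within 0.15 (log2), while 2 pairs, both with S43 replicate 3, missed by a factor of 2. Absolute depth is unknown because the table holds no read counts.

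Most unigenes had somewhat higher FPKM values at S45, and the most abundant ones had lower values. Over all tested unigenes the log2 difference, S45 minus S43, had a median of 0.45, and 67.0% of them had a higher mean FPKM at S45. This median was 0.14 with no filter on low values, 0.81 with a pseudocount of 0.1, 0.065 after median-ratio scaling and -0.092 after quantile normalization. The median was 0.48 for the 47997 unigenes under a mean FPKM of 3 and 0.51 for the 25703 from 3 to 10. It was 0.31 for the 10672 from 10 to 30, 0.11 for the 3728 from 30 to 100 and -0.08 for the 1111 from 100 to 1000. For the 143 unigenes at 1000 or more it was -0.28, and 25.2% of these had a positive difference. The order of the classes was nearly the same in every pair of an S45 sample and an S43 library, while the level followed the S43 library. Over all tested unigenes the median difference of S45 replicate 1 was 0.74 against S43 replicate 1, 0.69 against replicate 2 and 0.20 against replicate 3. For the mean of S45 replicates 2 and 3 these medians were 0.70, 0.57 and 0.13. Against S43 replicate 3, the classes of 30 FPKM and more had negative medians in both S45 samples. Without S43 replicate 3 the median over all tested unigenes was 0.60. Total FPKM also differed between libraries. It was 1332754, 1360464 and 1688307 in S43 replicates 1, 2 and 3 and 1587613, 1417181 and 1419371 in those of S45. The part of these totals in the median differences was not tested.

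**Figure D1:**
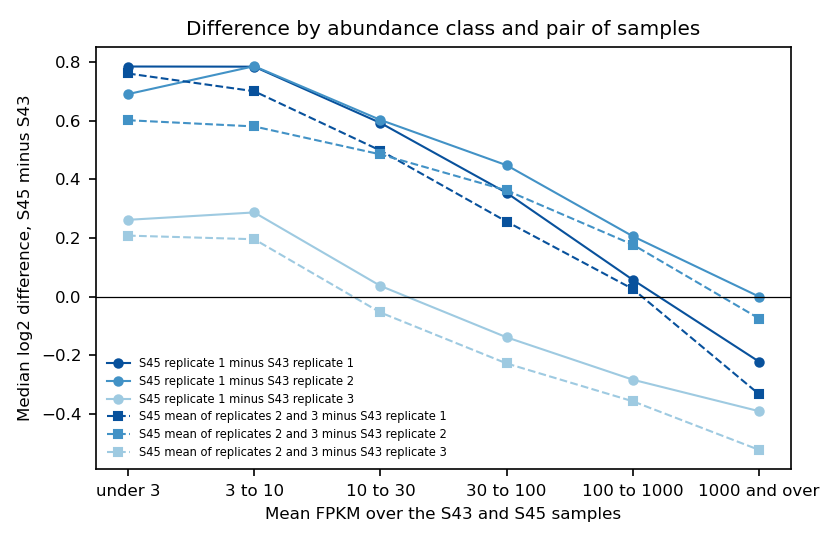
Median log2 difference in log2(FPKM + 1), S45 minus S43 (vertical axis), by class of mean FPKM over the S43 and S45 samples (horizontal axis). Each line is a pair of an S45 sample (circles, replicate 1; squares, mean of replicates 2 and 3) and an S43 library (shade of blue); all lines fall from the low to the high classes, and the pairs with S43 replicate 3 lie lowest, from 0.29 down to -0.52.

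The shift went with a smaller share of the most abundant transcripts. The 100 highest unigenes of each library held 37.2, 30.6 and 26.2% of total FPKM in S43 replicates 1, 2 and 3, and 22.0, 24.4 and 24.3% in those of S45. All S45 values lay below all S43 values. The difference of means was -8.22 percentage points (exact 2-sided permutation p = 0.2, where 0.1 is the lowest value possible with groups of 3 and 2). The number of highest unigenes that together made up 50% of total FPKM was 330, 725 and 1434 in the S43 libraries, and 2816, 1832 and 1867 in those of S45. This count, chosen after seeing the data, did not overlap between stages either (exact permutation p = 0.2). An FPKM is relative to its library, so lower levels of the highest unigenes and higher levels of the rest cannot be told apart.

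**Figure D2:**
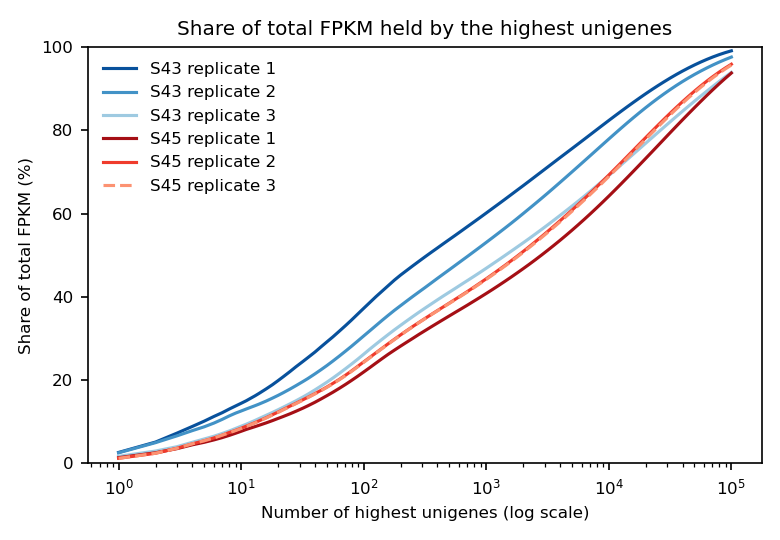
Share of total FPKM (vertical axis, %) held by the highest unigenes of a library, ranked from the highest down (horizontal axis, log scale), for the 3 S43 libraries (blue) and the 3 S45 libraries (red). At 100 unigenes the S43 curves stand at 26.2 to 37.2% and the S45 curves at 22.0 to 24.4%.

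The 10 unigenes with the highest mean FPKM over the S43 and S45 samples kept very high levels, and none passed the test. The highest had an FPKM of 33181.77, 34595.44 and 21222.27 in S43 replicates 1, 2 and 3 and of 21753.42, 17058.73 and 17181.93 in those of S45. Its highest S45 library lay above its lowest S43 library, so the stages overlapped (log2 difference -0.59 ± 0.25 SE, limma adjusted p = 0.23). Number 8 had 11751.01, 11326.90 and 9160.23 at S43 and 7506.88, 5282.40 and 5318.03 at S45, with no overlap (log2 difference -0.76 ± 0.23, limma adjusted p = 0.099). Number 9 went against the rest, with 7078.37, 6500.15 and 7641.02 at S43 and 8675.92, 9631.40 and 9669.57 at S45 (log2 difference 0.37 ± 0.14, limma adjusted p = 0.16). This difference turned negative with median-ratio scaling (-0.25) and after each sample was centred on its median (-0.21).

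Numbers 7 and 10, a pair picked after seeing the data, followed each other through all libraries. Number 7 had a mean FPKM of 690 ± 871 at S36 and 2319 ± 518 at S40 (SD, n = 3 each), 11225 ± 2912 at S43 (n = 3) and 7650 ± 2623 at S45 (n = 2). Number 10 had 596 ± 767, 2145 ± 495, 8590 ± 1848 and 5663 ± 1828 in the same order. The ratio of the former to the latter stayed between 1.05 and 1.37 in the 12 libraries, while number 7 ranged from 34.93 to 13519.05 FPKM. No such ratio was computed for other pairs. Of the 100 unigenes highest by mean FPKM, 80 had a negative and 20 a positive log2 difference. Of all tested unigenes 67.0% were higher at S45, counted by mean FPKM and not by the log2 difference. The S45 libraries of 30 of these 100 lay below all S43 libraries and those of 1 lay above, against 2.89 and 20.2% of all tested unigenes.

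Each unigene was tested with limma on log2(FPKM + 1), with all stages in 1 fit, and a call needed both a Benjamini-Hochberg adjusted p below 0.05 and a log2 difference beyond 1 in either direction. By that rule 2601 unigenes, 2.91% of those tested, were called higher at S45, and 136, or 0.152%, were called lower. A second reading took the median unigene as the reference and subtracted its difference of 0.45 before the test. It called 229 higher (0.256%) and 115 lower (0.129%). All of the 229 and 110 of the 115 were also called in the first reading. Both readings use the same fit and SE and differ only by this subtraction. The overlap of the higher calls was therefore fixed in advance and is no support. The median SE of a log2 difference was 0.57, and 5% of the unigenes had an SE under 0.39. With no adjustment, limma gave p below 0.05 for 16953 unigenes in the first reading and 11901 in the second. Median-ratio scaling, which brings the libraries to a common level, called 290 higher and 61 lower in the first reading and 251 and 67 in the second. Quantile normalization called 417 and 101, and 599 and 95. Of the 229 called higher relative to the median, 212 were called again by the former and 228 by the latter. Of the 115 called lower, 64 and 70 were called again. In the first reading these numbers were 290 and 417 of the 2601 higher and 58 and 75 of the 136 lower.

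Groups that did not overlap were far more numerous than calls. For 18078 unigenes (20.2%) every S45 library lay above every S43 library, and for 2578 (2.89%) every S45 library lay below. After each library was centred on its own median log2 value these were 9607 (10.8%) and 9526 (10.7%). The centring itself sets these counts near each other, so nothing is read from their balance. With effective groups of 3 and 2 samples, such separation is frequent even where stages do not differ. The counts are therefore not numbers of changed unigenes. The filter on low values favoured S45 as well: 6048 of the tested unigenes reached an FPKM of 1 in all S45 libraries and no S43 library, and 520 in all S43 libraries and no S45 library.

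**Figure D3:**
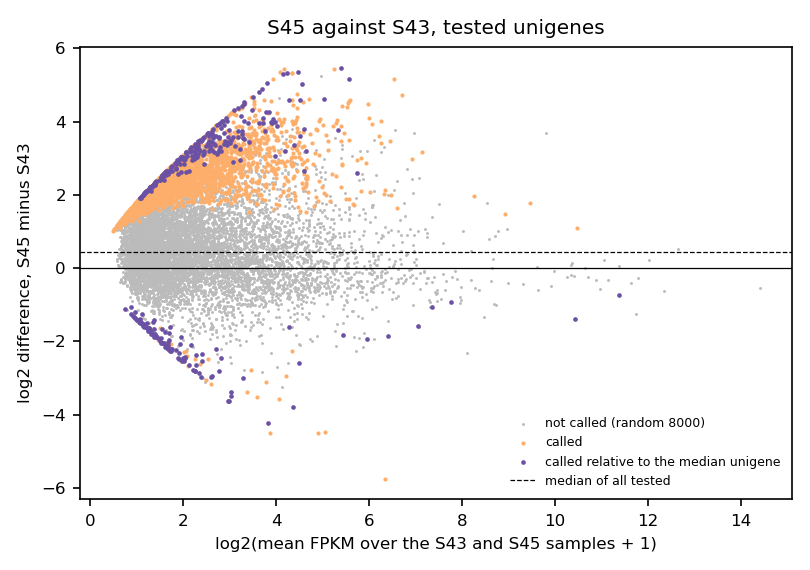
Log2 difference, S45 minus S43 (vertical axis), against log2(mean FPKM + 1) over the S43 and S45 samples (horizontal axis). Orange points were called, purple points were called relative to the median unigene, grey points are a random sample of those not called, and the dashed line is the median difference of 0.45; most called points lie above it and at low levels.

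The number of calls depended on single libraries. Without S43 replicate 3 the first reading called 11814 higher and 469 lower and the second 2308 and 725. Without S45 replicate 1, which leaves S45 with 1 sample whose spread is taken from the other stages, these were 253 and 10, and 105 and 20. Without S43 replicate 1 they were 892 and 119, and 193 and 141. Without S43 replicate 2 they were 667 and 92, and 121 and 100. Leaving out a library of another stage changed only the estimate of the spread: the first reading called 1386, 1510 and 1209 unigenes in all without S36 replicates 1, 2 and 3, and 1232, 2080 and 1363 without those of S40. The second called 105, 121 and 105, and 119, 193 and 121. A fit of the S43 and S45 samples alone called none in either reading (smallest limma adjusted p = 0.17 and 0.44), with 10782 and 6911 unigenes at an unadjusted p under 0.05. In every one of these fits that made calls, more were higher than lower. The fits share most libraries and the filter that favoured S45, and the first reading keeps the shift of the median unigene. This direction was thus largely fixed in advance and is no support. Leaving out both S43 replicate 3 and S45 replicate 1, the closest pair of an S43 and an S45 library, leaves S45 with 1 sample. Calls of that fit would rest on the spread of other stages and are not given. Its median log2 difference over all tested unigenes was 0.57. Without both S43 replicate 2 and S36 replicate 1, a choice made after seeing the data, the first reading called 111 higher and 18 lower. The second called 29 and 21.

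**Figure D4:**
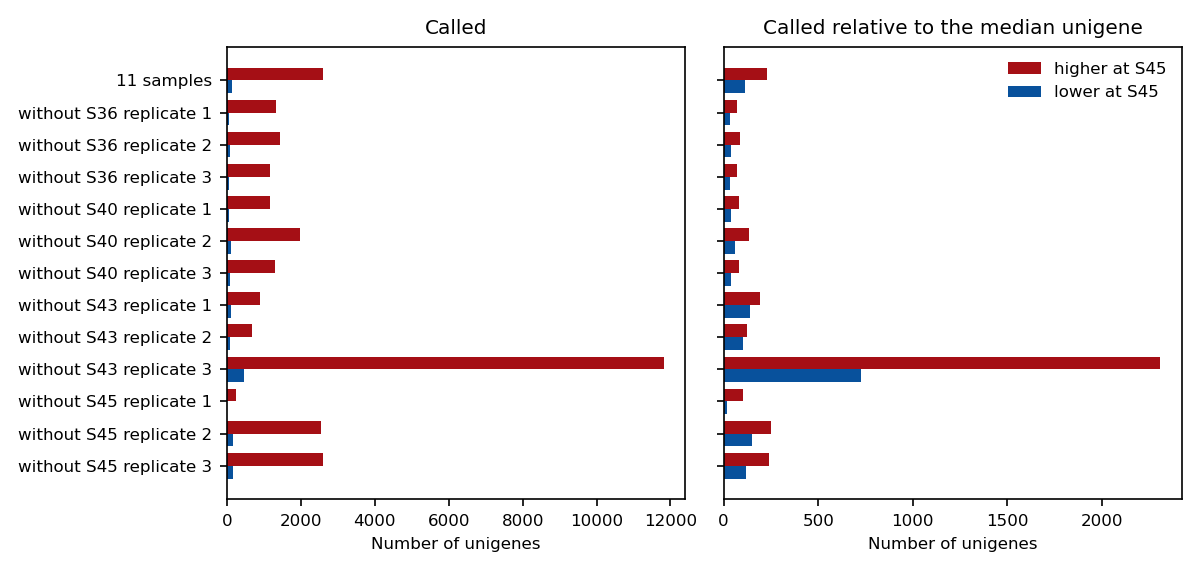
Number of unigenes called higher (red) and lower (blue) at S45 (horizontal axis) in the fit of 11 samples and with each of the 12 libraries left out in turn (rows), for calls of the plain difference (left) and of the difference relative to the median unigene (right). Without S43 replicate 3 the left panel reaches 11814 higher; without S45 replicate 1 it falls to 253.

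The called unigenes fell into 2 kinds, and this split was made after seeing the data. The first kind had a value above 0 at S36 or S40, which held for 2251 of the 2601 called higher and 43 of the 136 called lower. The median FPKM of the 2251 was 1.94 at S36, 2.51 at S40, 0.45 at S43 and 7.45 at S45. That of the 43 was 0.78, 2.03, 7.67 and 0.013 in the same order. The S40 mean lay between those of S43 and S45 for 2145 of the 2251, or 95.3%, against 32.7% of all tested unigenes. The 2251 were chosen for a low S43 and a high S45, so a wide gap between these stages comes with the choice. The share over all tested unigenes is no like reference for it, and nothing is read from the difference. In the second reading 110 of the 229 were of this kind, with median FPKM of 3.24, 4.78, 0.40 and 15.4 in stage order.

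The second kind was listed at 0 in all S36 and S40 libraries. It made up 350 of the 2601 called higher (13.5%), 119 of the 229 (52.0%) and 88 of the 115 called lower relative to the median (76.5%), against 7.48% of all tested unigenes. Many of these passed the filter on low values only through the stage in which they were high, so nothing is read from these shares. They were low: the 119 had a median FPKM of 5.98 at S45, and all 88 but 1 had a mean under 10. The spread of such a unigene was estimated in part from stages in which every library is at 0. The median SE of all 6680 tested unigenes of this kind was 0.56, against 0.57 for the other 82674. The SE pools all stages, so this likeness cannot show whether the spread at S43 and S45 is understated for these unigenes. Of the 119, 115 were also at 0 in all S43 libraries, and of the 88, 65 were at 0 in all S45 libraries. An exact 0 in such a table can also be a failed estimate.

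The calls that were made in the full set and again without each of the 12 libraries in turn were 210 higher and 5 lower in the first reading and 46 higher and 13 lower in the second. Of the 46, 44 were listed at 0 in all libraries of the other 3 stages, and all 13 were found in S43 libraries only. These entered the test only through the stage in which they were high, with all other stages at 0, so their count is no support for a change. The same limit holds for most calls of the first reading. All 5 lower were found in S43 libraries only. Of the 210 higher, 179 were at 0 in all S43 libraries and 166 in all S36 and S40 libraries. The median of their mean FPKM was 2.08. The highest of the 13 had 10.44, 14.81 and 9.41 FPKM in S43 replicates 1, 2 and 3. The highest of the 46 was 1 of the 2 exceptions and had 38.61, 52.99 and 47.47 FPKM at S45, after 0.39 in S43 replicate 1 and a listed 0 in replicates 2 and 3. At S36 it had 5.83, 12.13 and 10.71 FPKM and at S40 13.73, 28.04 and 21.70, so it was not confined to S45.

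The most abundant unigenes called higher relative to the median belonged to the first kind, and their S45 libraries stood clear of all 9 others. Cluster-199519.123125 had 20.88, 13.07 and 16.67 FPKM in S43 replicates 1, 2 and 3 and 89.12, 128.14 and 119.24 in those of S45. The stages did not overlap, and the mean was 6.31-fold higher at S45. The log2 difference was 2.59 ± 0.37 SE, or 2.14 relative to the median unigene (limma adjusted p = 0.011 and 0.041). At S36 it had 58.5 ± 4.92 and at S40 67.4 ± 17.1 FPKM (SD, n = 3 each), so S43 was its lowest stage.

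Cluster-199519.135977 had 1.46, 0.81 and 6.14 FPKM at S43 and 106.47, 121.33 and 116.47 at S45. Its S45 libraries were alike and its S43 libraries were lower by an order of magnitude or more. The mean was 40.2-fold higher at S45 (log2 difference 5.16 ± 0.63 SE, 4.71 relative to the median unigene, limma adjusted p = 0.0055 and 0.013). At S36 and S40 it had 14.2 ± 4.88 and 16.4 ± 9.59 FPKM (SD, n = 3 each). The 29 alternatives include a fit without the threshold on the log2 difference, which made the same calls. They also include fits that kept S45 replicates 2 and 3 separate or left S45 with 1 sample. Tallies over them are therefore no measure of support. The call of Cluster-199519.135977 relative to the median held in 24 of 29 alternatives and without 11 of the 12 libraries. It was not made without S45 replicate 1, which leaves S45 with 1 sample. That of Cluster-199519.123125 held in 12 of 29 and without 4 of the 12 libraries, S43 replicates 1 and 3 and S45 replicates 2 and 3. Without any of the others its limma adjusted p was up to 0.14. The plain calls of both held without each of the 12 libraries in turn.

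Numbers 3 to 5 by abundance in this direction were also low at S43 and high at S45. Number 3 had 0, 0 and 9.98 FPKM at S43 and 91.60, 108.73 and 100.79 at S45, after 4.94 to 6.62 at S36. Number 4 had 5.29, 2.32 and 11.63 at S43 and 64.31, 116.99 and 111.53 at S45, after 23.24 to 41.51 at S36. Number 5 had 1.54, 0.15 and 8.46 at S43 and 63.97, 82.39 and 85.43 at S45, after 6.74 to 7.92 at S36. In all 3, S43 replicate 3 was the S43 library nearest to S45 and S45 replicate 1 the S45 library nearest to S43. Their differences relative to the median unigene were 5.02, 3.31 and 4.17 (limma adjusted p = 0.047, 0.043 and 0.046), and each call held without only 3 of the 12 libraries.

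Among the unigenes called lower relative to the median, the most abundant were expressed at all stages and stood at their lowest at S45. Cluster-199519.117316 had 3495.39, 2557.27 and 3385.97 FPKM in the S43 libraries and 2012.49, 1753.15 and 1778.68 in those of S45. The stages did not overlap, and the mean was 1.67-fold lower at S45. Its log2 difference of -0.72 ± 0.21 SE did not pass as it stood (limma adjusted p = 0.090) and passed at -1.18 relative to the median unigene (limma adjusted p = 0.048). It is 1 of the 143 unigenes of 1000 FPKM and more, whose own median difference was -0.28. At S36 it had 3189 ± 601 and at S40 2574 ± 266 FPKM (SD, n = 3 each).

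Cluster-199519.120908 had 1511.57, 2005.84 and 1985.72 FPKM at S43 and 567.95, 927.34 and 740.13 at S45. The highest S45 value lay below the lowest S43 value, and the mean was 2.62-fold lower. It was called in both readings (log2 difference -1.40 ± 0.32 SE, -1.85 relative to the median unigene, limma adjusted p = 0.044 and 0.043). It is also 1 of the 143 unigenes of 1000 FPKM and more, whose own median difference was -0.28. Its S36 level was 2071 ± 748 and its S40 level 1191 ± 296 FPKM (SD, n = 3 each). With the limit on such tallies given above, the calls of Cluster-199519.117316 and Cluster-199519.120908 relative to the median held in 8 and 10 of 29 alternatives. The former held without S43 replicate 3, S45 replicate 2 or S45 replicate 3, and the latter without S43 replicate 3 or S45 replicate 2. Without any other library the limma adjusted p reached 0.21 and 0.28.

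Numbers 3 to 5 in this direction likewise had no overlap between the stages. Number 3 had 248.75, 260.92 and 287.16 FPKM at S43 and 157.84, 122.32 and 124.37 at S45, and number 4 had 238.15, 191.71 and 189.59 against 97.59, 97.10 and 96.44. Number 5 had 235.75, 169.22 and 137.96 against 56.37, 64.35 and 58.19. All 3 were higher at S36 and S40 than at S45, with means of 320, 320 and 200 FPKM at S36 and 329, 316 and 187 at S40. Their differences relative to the median unigene were -1.37, -1.52 and -2.02 (limma adjusted p = 0.048, 0.047 and 0.036). All 3 fall in the class from 100 to 1000 FPKM, whose own median difference was -0.08. As they stood, number 5 passed (limma adjusted p = 0.036) and numbers 3 and 4 did not (0.071 and 0.059). The calls relative to the median held without 2, 3 and 3 of the 12 libraries. With quantile normalization neither these unigenes nor those named in this direction were called (limma adjusted p from 0.064 to 0.38).

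**Figure D5:**
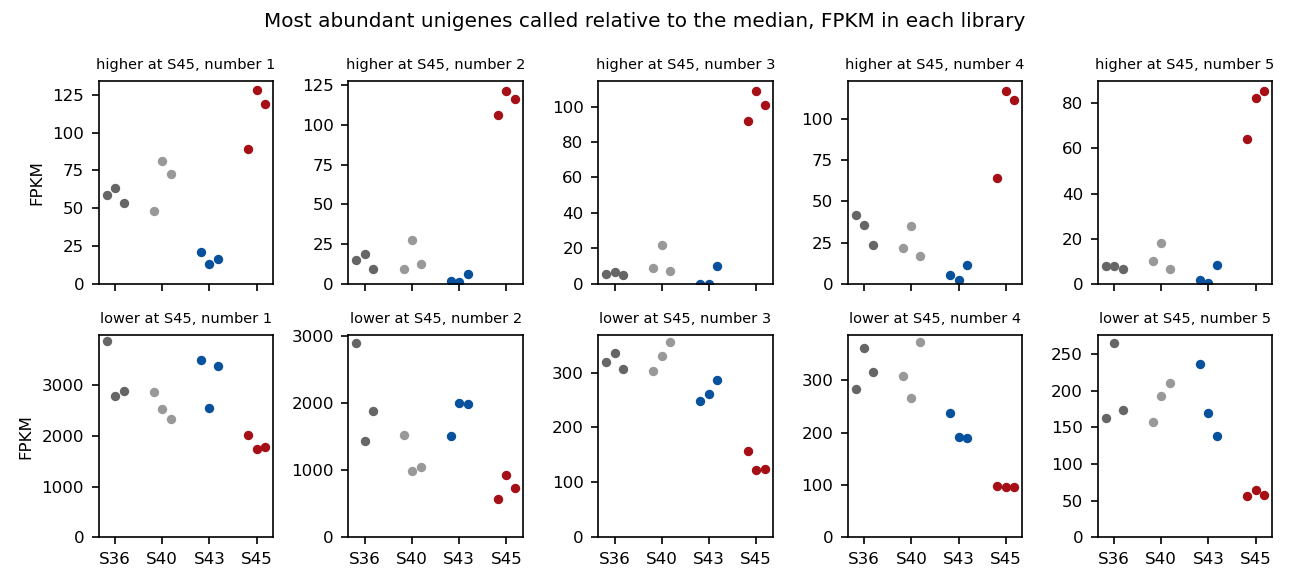
FPKM (vertical axes, from 0) of the 5 most abundant unigenes called higher (top) and lower (bottom) at S45 relative to the median unigene, in each of the 12 libraries by stage (horizontal axis; 1 point per library, S43 in blue, S45 in red). In the top row S45 lies above all other stages and S43 is at or near the lowest; in the bottom row S45 is lowest.

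Some abundant unigenes were called higher as they stood but not relative to the median, and these were picked after seeing the data. The most abundant of them, number 112 by mean FPKM, had 1242.33, 764.16 and 974.42 FPKM at S43 and 1834.32, 2318.57 and 2323.54 at S45. This was a 2.09-fold higher mean with no overlap (log2 difference 1.08 ± 0.24 SE, limma adjusted p = 0.041), or 0.63 relative to the median unigene (limma adjusted p = 0.29). Its level was 1921 ± 133 at S36 and 1618 ± 243 at S40 (SD, n = 3 each), against 2078 ± 344 at S45 (n = 2). The next had 311.66, 411.09 and 363.28 at S43 and 1254.17, 1212.47 and 1207.89 at S45 (log2 difference 1.77 ± 0.31, limma adjusted p = 0.022). The third had 300.03, 276.02 and 279.93 against 839.24, 739.12 and 743.71 (log2 difference 1.46 ± 0.30, limma adjusted p = 0.032). The calls of these 3 held without 4, 10 and 7 of the 12 libraries, and their limma adjusted p reached 0.14, 0.13 and 0.19 without one of the others.

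Over the whole table, 1176 unigenes stood at 0 throughout S43 and reached 1 FPKM in every S45 library, and 209 showed the opposite. At an FPKM of at least 5 these were 114 and 10, and at 10 or more 31 and 1. Because S45 replicates 2 and 3 were nearly identical, presence in every S45 library asks for less agreement than presence in every S43 library. The counts of the 2 directions are therefore not on a like basis, and nothing is read from their imbalance. Of the 1176, 235 were at 0 in all S36 and S40 libraries too and 86 had at least 1 FPKM in all S40 libraries. In a separate count of unigenes missing from 1 library, S43 replicate 1 had 1869 at 0 that reached 1 FPKM in the other 5 libraries, against 910 and 653 for S43 replicates 2 and 3 and 212 to 510 for those of S45. S45 replicates 2 and 3 each have a near-identical partner among the other 5 libraries, so these counts are not on a like basis either. The part of depth in these counts was not tested.

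Unigenes outside the largest cluster of the assembly were high in 1 library of each stage. That cluster held 224984 unigenes. The remainder took 3.75, 4.56 and 12.7% of total FPKM in S43 replicates 1, 2 and 3 and 12.3, 6.19 and 6.57% in those of S45. The high values were those of S43 replicate 3 and S45 replicate 1, and the difference of means was 2.33 percentage points (exact 2-sided permutation p = 0.6), or -0.63 without S45 replicate 1. Among the tested unigenes 12944 lay outside the cluster, with a median log2 difference of 0.42 against 0.46 within it. Of those called, 353 of the 2601 higher and 59 of the 136 lower lay outside, which is 13.6 and 43.4%, against 14.5% of all tested unigenes. But 202 of the 353 and 53 of the 59 were listed at 0 in all S36 and S40 libraries. Many unigenes of that kind passed the filter only through the stage in which they were high, so nothing is read from these shares. Among called unigenes above 0 at S36 or S40, 151 of 2251 higher (6.71%) and 6 of 43 lower (14.0%) lay outside. The share among all tested unigenes above 0 at S36 or S40 was not computed. These shares therefore have no like reference, and nothing is read from them either.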

How the data were processed

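The authors deposited 1 table of FPKM values, rounded to 2 decimals, with a column for each library. The software for assembly, alignment and counting is not given in the sources used here. Stages and replicate numbers were taken from the sample titles, and all columns were used. Nothing says that the libraries came from separate animals, so the p-values reflect library-to-library spread that may be purely technical. The mean of S45 replicates 2 and 3 was used as 1 sample.

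limma 3.58.1 in R 4.3.3 was fitted to log2(FPKM + 1) of 11 samples with stage as the only term, moderated variances and a mean-expression trend. All stages share the fit because 3 against 2 samples estimate the spread poorly. Differences on this scale understate the change of low unigenes. Whole reads could not be recovered from FPKM without unigene lengths, so no count model was used. Shares were compared with exact permutation tests. Simulated data with known changes were used to check the limma code. Python 3.11.15 with numpy 2.4.6, pandas 2.3.3 and matplotlib 3.10.9 drew figures and relative depths.

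The comparison, the lists and the rule for named unigenes were chosen with earlier results of these data known. By that rule at most 2 unigenes per direction are named by ID: the most abundant by mean FPKM over S43 and S45 samples among those called relative to the median with no overlap between the libraries. The 10 most abundant of all and ranks 3 to 5 per direction are given without ID. Gene and marker lists were not run because the table holds no gene names. The alternatives were other pseudocounts, filters, scalings and variance models, other sets of samples, a replicate block and each library left out.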

Additional observations from a re-analysis of the deposited data

How the results depend on the processing

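None of the called unigenes ranked by abundance in the text turned direction in any of the 29 alternatives. All of them were chosen for stages without overlap, so this outcome was largely fixed in advance and is no support. In the order plain calls and calls relative to the median unigene, against 2737 and 344 in all, the numbers were 826 and 229 with a pseudocount of 0.1, 235 and 1 with a mean FPKM of at least 5, and 1149 and 129 with the filter over all 12 libraries. Median-ratio scaling gave 351 and 318, and quantile normalization 518 and 694. Keeping S45 replicates 2 and 3 as separate samples gave 7979 and 2616, and in a fit of S43 and S45 samples alone 0 and 0. No filter gave 1758 plain calls, eBayes without trend 158 relative calls, and centring each sample first, chosen after seeing the data, 568. With 1 library left out they ranged from 263 to 12283 and from 105 to 3033. Leaving out pairs of close libraries from different stages gave 105 and 21 (S36 replicate 3 with S40 replicate 1). Leaving out S36 replicate 1 with S43 replicate 2, chosen after seeing the data, gave 129 and 50. Leaving out S43 replicate 3 with S45 replicate 1 leaves S45 with 1 sample, so its calls are not given. The median log2 difference of 0.45 became 0.81 with a pseudocount of 0.1, 0.14 with no filter, 0.065 after median-ratio scaling and -0.092 after quantile normalization. The difference of -0.25 for the ninth most abundant unigene with median-ratio scaling was -0.21 with centring, and those of numbers 3 and 4 became 0.13 and 0.056 with quantile normalization. The share outside the largest cluster differed by -0.63 to 5.19 percentage points with 1 library left out. With the replicate block, in the fit of 12 separate libraries, 5689 and 1304 were called, but whether the replicate numbers pair the libraries is unknown. Deviations of same-numbered S43 and S45 libraries correlated at -0.14, 0.07 and -0.14. Differently numbered pairs were not computed, and S45 replicates 2 and 3 are nearly identical, so these values cannot decide it. Cause was not tested for any of these changes. Depth is known only in relative terms, so no counting error can be given.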

Other observations

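Among the 6 S43 and S45 libraries, 5343 unigenes reached 1 FPKM in S43 replicate 3 and S45 replicate 1 and were listed at 0 in the other 4, and 4251 of them lay outside the largest cluster of the assembly. They held 1.16% of total FPKM in S43 replicate 3 and 1.60% in S45 replicate 1. For the other pairs of these libraries the same count ran from 379 to 2187. With values in only 2 of the 6 libraries, none of them passed the filter of the comparison.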
